A study of Mus musculus with 6 samples.

Results

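Activity-induced immediate early genes are transcribed within minutes of a calcium or growth-factor signal, without new protein synthesis. In neurons, calcium entering through NMDA receptors and voltage-gated channels activates kinases that phosphorylate the factors CREB, Elk and SRF already bound at these promoters. Most of the proteins made are transcription factors that set the later gene programme, and their messenger RNAs are short-lived, so their level in a brain is widely used as a record of recent neuronal firing. The 10 genes described here were chosen by symbol: Fos, Fosb, Junb, Egr1, Egr2, Npas4 and Nr4a1 (transcription factors), Dusp1 (a phosphatase that switches off MAP kinases), Ier2 (a nuclear response protein) and Arc (a synaptic effector). Each had 1 row among the 18491 genes of the deposited table.

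The data are messenger RNA levels in brains of C57BL/6N mice, an inbred strain, at postnatal day 28. There were 3 libraries from Mettl5-/- mice, called knockout here, and 3 from wild-type mice, called wild type. Mettl5 encodes the enzyme that methylates an adenosine of the small-subunit ribosomal RNA. The labels name neither the part of the brain, the time of day nor the handling before tissue was taken, all of which can alter immediate early genes, and leave unsaid whether each library is a separate animal. The p-values therefore measure the spread between these 6 libraries, which may be technical.

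Levels are FPKM, fragments scaled by transcript length and by the mapped total of a library, so they can be compared between genes per length. FPKM sums per library lay between 350727 and 377334, and sequencing depth is unknown. Mettl5 itself was present at 2.79, 3.81 and 2.40 FPKM in knockout libraries 1, 2 and 3, against 4.78, 5.16 and 5.92 FPKM in wild-type libraries 1, 2 and 3, without overlap (limma adjusted p = 0.79). All 6 pan-neuronal markers were expressed, with summed levels of 2249 to 2320 FPKM in the knockout and 2232 to 2341 FPKM in the wild type. The sum does not show each marker to be equal, since 2 of the 6 were higher and 4 lower in the knockout. Rbfox3 averaged 105 FPKM in the knockout and 83.5 FPKM in the wild type, whereas Tubb3 averaged 143 and 184 FPKM. Regional markers were uneven, and 2 knockout libraries stood apart. The 5 cerebellar granule neuron markers summed to 416 FPKM in knockout library 2, against 24.4 to 50.5 FPKM in the other 5 libraries. The 4 thalamic markers summed to 14.7 FPKM in knockout library 3, against at least 57.8 FPKM elsewhere. The 7 oligodendrocyte markers summed to 5202, 5574 and 2068 FPKM in knockout libraries 1, 2 and 3, against 6780, 7499 and 6265 FPKM in wild-type libraries 1, 2 and 3. All 7 were lower in the knockout without overlap, which held for 6.43% of all genes tested. Their median log2 difference was -0.75. Of the 7, 0 had an unadjusted limma p under 0.05, against 3.69% of all genes on the lower side. In whole-tissue RNA, fewer cells of a type and less RNA per cell cannot be told apart.

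The promoters of these genes are where the activity signal is read. A 300-base RefSeq window (GRCm38.p6), from 250 bases before to 50 bases after a transcription start, was at hand for 7 of the 10: Fos, Fosb, Junb, Egr2, Npas4, Nr4a1 and Dusp1. Searched on both strands, the letters TGACG, the core of the cAMP response element bound by CREB, were found for all 7 genes (9 of their 11 windows), against 26.2% of the 18247 windows of all genes in the table. Per gene, 29.7% of 14657 genes had the core in at least 1 window. The full palindrome TGACGTCA, which contains the core on both strands, was found for 1 of the 7 (Dusp1), against 2.5% of all windows. The CArG box bound by SRF was found for 1 (Egr2, in 4 windows, some of which overlap and hold the same box), against 1.41% of windows. TATAAA was found for 2 (Fos and Junb), against 9.82%. Per gene, the shares were 2.92% for the palindrome, 1.66% for the CArG box and 11.7% for TATAAA. Letters more than 250 bases before a start were not searched. A match is a description of the letters, not a site shown to be used.

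Printed here are Fos, the usual marker of the group, and the 3 genes with a window whose levels followed the shared library pattern described further on most closely, Nr4a1, Egr2 and Dusp1. Each is the strand of the gene, 5′ to 3′, with any of the 4 motifs in capitals. The Fos, Egr2 and Nr4a1 stretches end at the base before a RefSeq start. The Dusp1 stretch runs from 247 to 48 bases before it, because the nearer bases lie in an annotated exon. Their positions are chr12:85473690-85473889 (plus strand) for Fos, chr15:101266646-101266845 (plus strand) for Nr4a1, chr10:67537669-67537868 (plus strand) for Egr2 and chr17:26508520-26508719 (minus strand) for Dusp1.
Fos: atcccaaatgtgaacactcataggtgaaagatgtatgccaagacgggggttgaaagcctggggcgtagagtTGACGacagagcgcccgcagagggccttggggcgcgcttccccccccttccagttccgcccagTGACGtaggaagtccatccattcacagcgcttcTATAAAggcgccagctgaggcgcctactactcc
Nr4a1: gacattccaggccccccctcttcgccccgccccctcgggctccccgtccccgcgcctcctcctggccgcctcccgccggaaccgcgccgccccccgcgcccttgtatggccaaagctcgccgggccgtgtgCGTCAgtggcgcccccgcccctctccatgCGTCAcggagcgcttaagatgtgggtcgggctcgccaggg
Egr2: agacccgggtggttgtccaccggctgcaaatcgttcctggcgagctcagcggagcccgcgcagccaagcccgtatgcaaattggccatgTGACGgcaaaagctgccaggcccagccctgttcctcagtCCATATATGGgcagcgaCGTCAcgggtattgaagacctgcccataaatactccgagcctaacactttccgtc
Dusp1: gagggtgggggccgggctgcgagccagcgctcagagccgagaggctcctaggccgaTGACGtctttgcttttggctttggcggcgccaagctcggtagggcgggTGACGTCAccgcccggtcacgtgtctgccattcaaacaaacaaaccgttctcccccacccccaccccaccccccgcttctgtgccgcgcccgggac
In these stretches, Fos held the TGACG core on the plus strand at 2 places and TATAAA once. Nr4a1 held the core 2 times on the other strand, read as CGTCA. In Egr2 a CArG box stood between 2 cores. Dusp1 held 3 matches to the core, 2 of which make up the palindrome.

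The genes were also compact. By the GENCODE M21 transcript that matches each deposited RefSeq transcript, the 10 genes spanned a median of 3618 bases with a median of 3.5 exons, against 23160 bases and 9 exons over the 12836 tested genes with a match. Of the 10, 7 spanned under 5000 bases, against 11.9% of those genes. The letters ATTTA, the core of AU-rich elements that shorten the life of messenger RNAs such as that of Fos, were present in the 3′ untranslated region (UTR) of 8 of the 10, against 69.6% of 12597 genes with a 3′ UTR of at least 50 bases, a share near this background. Arc and Ier2 were the 2 without one. The median density was 2.09 per kilobase in the 10 genes and 1.31 in all. The longer TATTTAT was present in 3 of the 10 (Fos, Fosb and Dusp1), against 30.2%. A single site was taken from each gene with TATTTAT, and other sites were not listed. The 2 of these in which ATTTA repeats overlap are shown, with ATTTA in capitals. They are bases 645 to 674 of the Fos and bases 93 to 122 of the Dusp1 3′ UTR.
Fos: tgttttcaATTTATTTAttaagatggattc
Dusp1: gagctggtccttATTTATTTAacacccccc

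The first comparison asked whether the level of each gene differed between knockout and wild-type brains. For 9 of the 10 genes the genotypes overlapped, and the ratio of the group means, knockout over wild type, lay between 0.81 and 1.11. The exception was Arc, whose 3 knockout values lay below all 3 wild-type values, at 0.579 of the wild-type mean. No gene passed the test across all genes. In the median of the 10 genes, libraries differed in both genotypes: library 1 of each was high, while knockout library 2 and wild-type library 3 were low. Wild-type library 3 was not the lowest of its genotype for Ier2 and Npas4. Library 1 was not the highest of the knockout for Npas4 and Arc, nor the highest of the wild type for Arc.

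**Figure D1:**
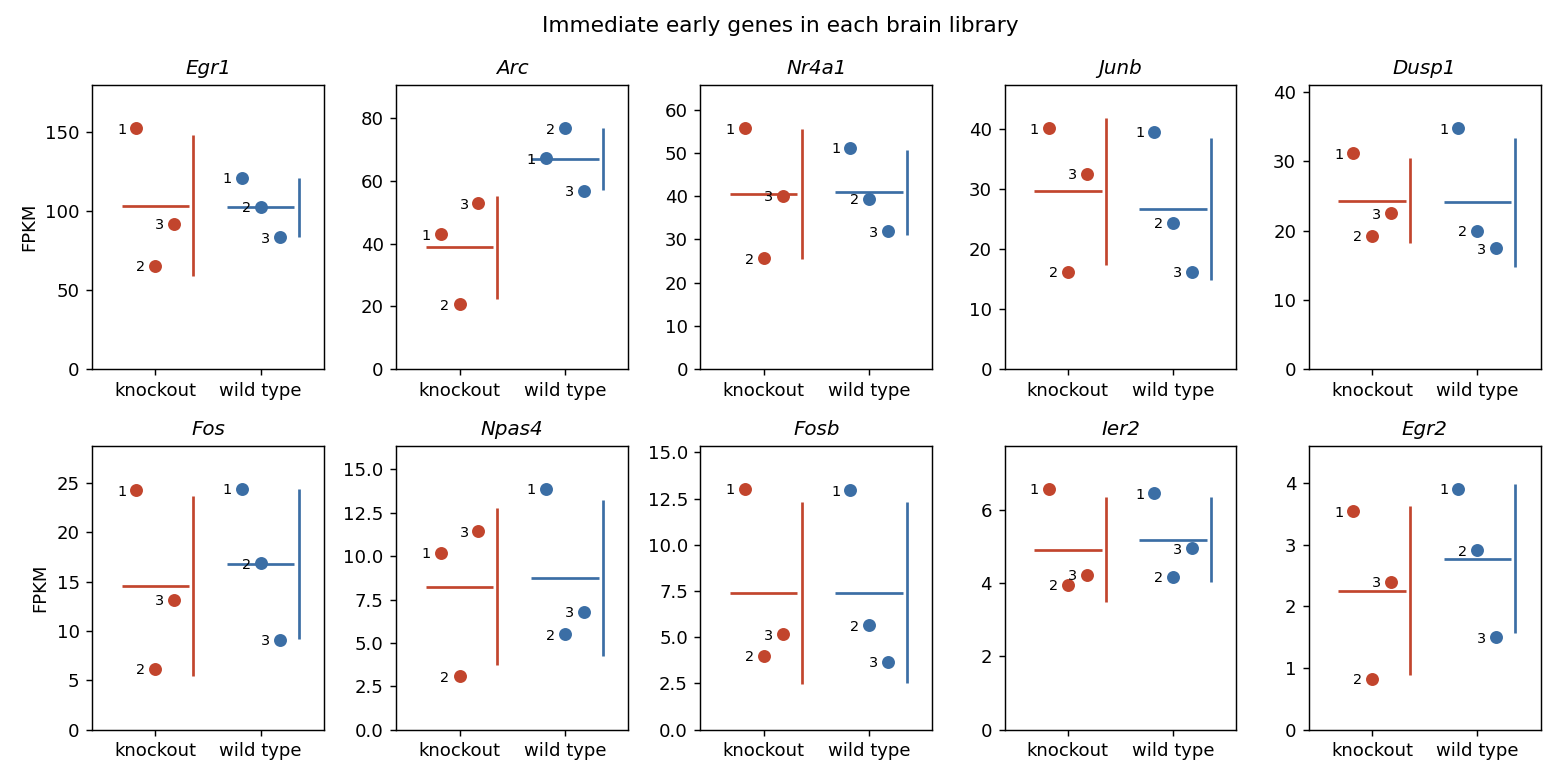
FPKM (vertical axes, from 0) of each immediate early gene in 3 knockout libraries (red, left) and 3 wild-type libraries (blue, right), ordered by mean level. Points carry the library number, horizontal lines are group means and vertical lines ± 1 SD (n = 3). Arc is the panel in which the groups do not overlap, and in most others libraries numbered 1 are at the top of both groups.

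Fos, Fosb and Junb encode leucine-zipper proteins that pair, a Fos family member with a Jun family member, as the transcription factor AP-1. Fos (gene ID 14281; chromosome 12, 85473890 to 85477273, plus strand, GRCm38) had 24.2, 6.18 and 13.1 FPKM in knockout libraries 1, 2 and 3, against 24.4, 16.9 and 9.12 FPKM in wild-type libraries 1, 2 and 3. The highest library of each genotype was nearly equal, and the lowest of all 6 was knockout library 2. The log2 fold change was -0.28 (SE 0.52; limma adjusted p = 0.94).

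Fosb (gene ID 14282; chromosome 7, 19302696 to 19310051, minus strand), a longer-lasting relative of Fos after repeated stimulation, had 13.0, 3.99 and 5.16 FPKM in knockout libraries 1, 2 and 3, against 13.0, 5.65 and 3.66 FPKM in wild-type libraries 1, 2 and 3. Library 1 of each genotype held over 2 times the level of any other library. The group means were 7.39 ± 4.9 and 7.42 ± 4.9 FPKM in knockout and wild type (SD, n = 3 each). Junb (gene ID 16477; chromosome 8, 84976910 to 84978718, minus strand), the Jun family partner, had 40.2, 16.2 and 32.5 FPKM in knockout libraries 1, 2 and 3, against 39.6, 24.4 and 16.2 FPKM in wild-type libraries 1, 2 and 3. Knockout library 2 and wild-type library 3 were equal and lowest, and Junb was 1 of 2 genes with a positive log2 fold change, 0.14 (SE 0.41). That sign turned to -0.12 without knockout library 1 and to -0.16 without wild-type library 3.

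Egr1 and Egr2 encode zinc-finger transcription factors. Egr1 (gene ID 13653; chromosome 18, 34861207 to 34864956, plus strand), also called Zif268, was the most abundant of the 10 in every library. It had 152, 65.4 and 92.0 FPKM in knockout libraries 1, 2 and 3, against 121, 103 and 83.4 FPKM in wild-type libraries 1, 2 and 3. The knockout libraries held both the highest and the lowest value, with means of 103 ± 45 and 102 ± 19 FPKM in knockout and wild type (SD, n = 3 each).

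Egr2 (gene ID 13654; chromosome 10, 67537869 to 67542188, plus strand), also known as Krox20 and required in peripheral nerve for myelination, was the least abundant of the 10 in every library. It had 3.54, 0.82 and 2.40 FPKM in knockout libraries 1, 2 and 3, against 3.90, 2.91 and 1.5 FPKM in wild-type libraries 1, 2 and 3. The values of the genotypes interleaved. At levels this low the log2(FPKM + 1) scale understates a change, and the log2 fold change was -0.26 (SE 0.38).

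Npas4 and Nr4a1 encode factors of other families. Npas4 (gene ID 225872; chromosome 19, 4984355 to 4990316, minus strand), a basic helix-loop-helix factor induced mainly by calcium entry in neurons, had 10.2, 3.07 and 11.4 FPKM in knockout libraries 1, 2 and 3, against 13.9, 5.49 and 6.81 FPKM in wild-type libraries 1, 2 and 3. It was 1 of the 2 genes, with Arc, in which knockout library 3 exceeded knockout library 1. Nr4a1 (gene ID 15370; chromosome 15, 101266846 to 101274795, plus strand), the orphan nuclear receptor Nur77, had 55.8, 25.6 and 40.2 FPKM in knockout libraries 1, 2 and 3, against 51.3, 39.4 and 31.9 FPKM in wild-type libraries 1, 2 and 3. Its means were nearly equal, 40.5 ± 15 and 40.9 ± 9.7 FPKM in knockout and wild type (SD, n = 3 each), and library 1 was the highest of each genotype.

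Dusp1 (gene ID 19252; chromosome 17, 26505590 to 26508519, minus strand), which dephosphorylates the MAP kinases that induce it, had 31.2, 19.2 and 22.5 FPKM in knockout libraries 1, 2 and 3, against 34.8, 19.99 and 17.4 FPKM in wild-type libraries 1, 2 and 3. Library 1 was again the highest of each genotype. Ier2 (gene ID 15936; chromosome 8, 84661331 to 84662852, minus strand), a single-exon gene, had 6.56, 3.95 and 4.22 FPKM in knockout libraries 1, 2 and 3, against 6.44, 4.16 and 4.94 FPKM in wild-type libraries 1, 2 and 3. It varied least of the 10, 1.66-fold between its highest and lowest library. Its interval was also the narrowest, a log2 fold change of -0.074 with a 95% confidence interval from -0.54 to 0.39.

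Arc (gene ID 11838; chromosome 15, 74669083 to 74672568, minus strand) encodes a protein whose messenger RNA is carried to active synapses and which promotes removal of AMPA receptors. It had 42.9, 20.6 and 52.8 FPKM in knockout libraries 1, 2 and 3, against 67.2, 76.8 and 56.9 FPKM in wild-type libraries 1, 2 and 3. Every knockout library was below every wild-type library, by a small margin between knockout library 3 and wild-type library 3. Knockout libraries averaged 38.8 ± 16 FPKM and wild-type libraries 66.9 ± 9.97 FPKM (SD, n = 3 each), a log2 fold change of -0.86 (SE 0.33; 95% confidence interval -1.65 to -0.072). In limma its unadjusted p was 0.0366, and its Benjamini-Hochberg adjusted p, over 12885 genes, was 0.79, so Arc did not pass. A 2-sided exact permutation of 3 against 3 values gave p = 0.1, the smallest this design allows.

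Arc lay lower in the knockout within each pair of equal replicate number, by log2 differences of -0.63, -1.85 and -0.11 for pairs 1, 2 and 3. With the replicate number as a block, the unadjusted p was 0.0742. Without knockout library 2, which held the most cerebellar marker RNA, the log2 fold change was -0.47 (SE 0.16). In that fit the limma p of Arc was 0.0181 unadjusted and 0.611 adjusted. Markers of forebrain excitatory neurons, the cells known for the strongest Arc induction, summed to 2195, 2003 and 2980 FPKM in knockout libraries 1, 2 and 3, against 2107, 1954 and 2525 FPKM in wild-type libraries 1, 2 and 3. These sums overlapped between the genotypes, and in each pair of equal number the knockout sum was the higher. Of the 7 markers, 5 were higher and 2 lower in the knockout, against 49.1% of all genes higher. The part of such cells in the Arc values was not tested.

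Arc was also set beside the other genes within each library. Relative to Egr1, Arc stood at 0.282, 0.315 and 0.574 in knockout libraries 1, 2 and 3, against ratios of 0.555, 0.749 and 0.682 in wild-type libraries 1, 2 and 3. Relative to Nr4a1, it stood at 0.77, 0.805 and 1.314 in knockout libraries 1, 2 and 3, against ratios of 1.31, 1.95 and 1.78 in wild-type libraries 1, 2 and 3. Relative to Fos, it stood at 1.77, 3.335 and 4.02 in knockout libraries 1, 2 and 3, against ratios of 2.755, 4.56 and 6.235 in wild-type libraries 1, 2 and 3. The groups overlapped in all 3 ratios, since wild-type library 1 lay below knockout library 3 in each and below knockout library 2 in the ratio to Fos. Between libraries of equal number, each of the 3 ratios was lower in the knockout in all 3 pairs. These ratios were chosen after the Arc values were seen.

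**Figure D2:**
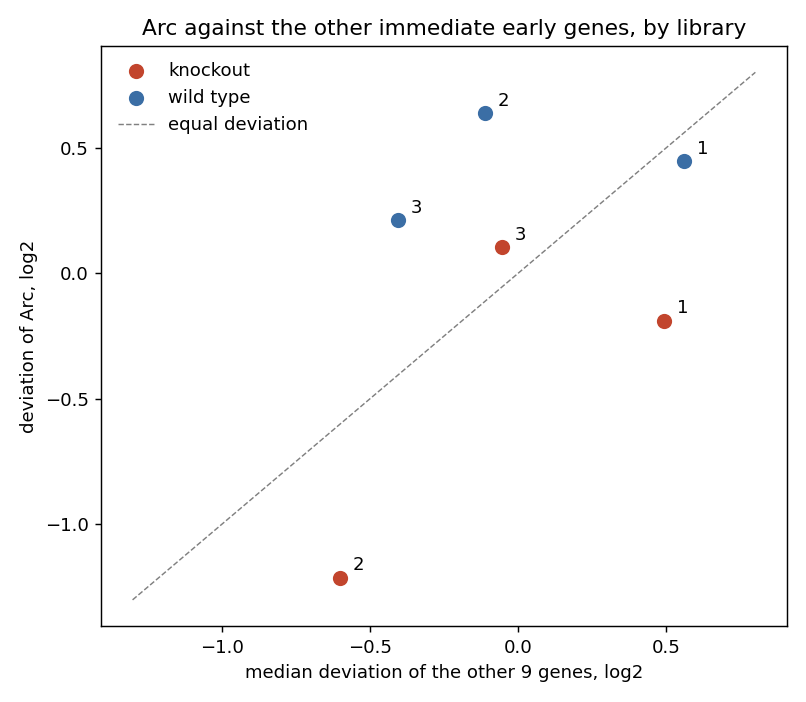
Deviation of Arc from its own mean over 6 libraries (vertical axis, log2(FPKM + 1)) against the median deviation of the other 9 immediate early genes (horizontal axis, same scale), 1 point per library with its number, knockout in red and wild type in blue. The libraries numbered 1 are far right in both genotypes (0.49 and 0.56), while Arc is at -0.19 in knockout library 1 and 0.45 in wild-type library 1.

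Over the 10 genes, 8 had a negative and 2 (Junb and Dusp1) a positive log2 fold change in the knockout, with a median of -0.066, against -0.0032 over all 12885 genes tested, of which 50.9% were lower. In limma with Benjamini-Hochberg adjustment 0 of the 10 passed at 0.05, against 0 of all genes (0%). Only Arc, on the lower side, had an unadjusted p under 0.05, 1 of the 10, a threshold met by 3.69% of all genes lower and 2.37% higher in the knockout. Arc was also the 1 gene whose genotypes were fully separated, which held for 6.43% of all genes on the lower and 5.48% on the higher side. These shares of the 10 rest on a single gene.

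The sign of most of the 10 turned on single libraries. Without knockout library 2, 1 gene (Arc) was lower and 9 were higher in the knockout, with a median log2 fold change of 0.21. Without wild-type library 1, 2 were lower and 8 higher, with a median of 0.095. Without knockout library 1, or without wild-type library 3, all 10 were lower, where the medians were -0.37 and -0.23. In the fit without the replicate block, the 95% intervals of 8 of the 10, all but Arc and Ier2, reached beyond 0.5 in both directions. For those 8, that fit could not exclude a log2 change of that size in either direction. With the block the SE was smaller for all but Arc. It was 0.16 against 0.51 for Fosb, 0.11 against 0.28 for Dusp1, and 0.36 against 0.33 for Arc.

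**Figure D3:**
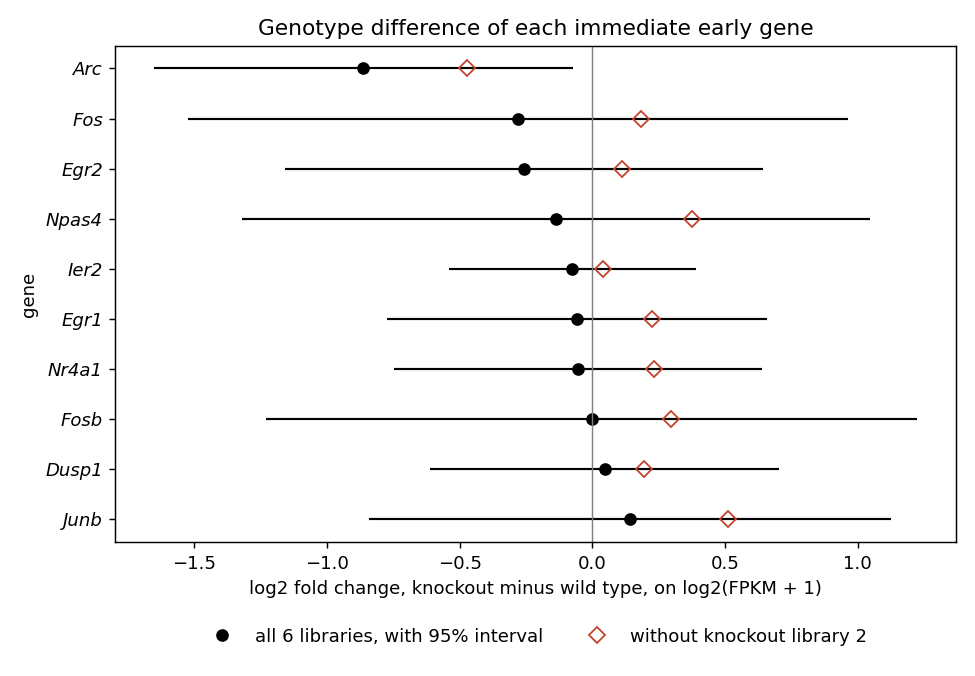
Log2 fold change, knockout minus wild type on log2(FPKM + 1) (horizontal axis), of each immediate early gene (rows). Black points and lines are estimates from all 6 libraries with their 95% confidence intervals, and red diamonds leave out knockout library 2. With that library left out, 9 of the 10 estimates are above 0 and Arc is at -0.47.

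The second comparison asked how the 10 genes varied between libraries whatever the genotype. Their spread was wide and largely shared. The highest library exceeded the lowest 4.76-fold in Egr2, 4.52-fold in Npas4 and 3.94-fold in Fos, but 1.997-fold in Dusp1 and 1.66-fold in Ier2. Of the 10, 9 (all but Arc) peaked in library 1, 4 in that of the wild type and 5 in that of the knockout, against 27.2% of all genes tested that peaked in either. Knockout library 2 was the lowest, ties included, for 8 of the 10, against 15.5% of all genes.

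The SD within genotype on the log2(FPKM + 1) scale was 0.80 for both Fos and Fosb, 0.77 for Npas4 and 0.64 for Junb, with a median of 0.55 over the 10 genes, against 0.15 over all genes tested. In 9 of the 10 this SD was larger than in 95% of all genes, and in Ier2 larger than in 88.4%. Fos, Fosb and Npas4 were above about 99% of genes. A spread of this size also set the width of the intervals given for the genotype difference.

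**Figure D4:**
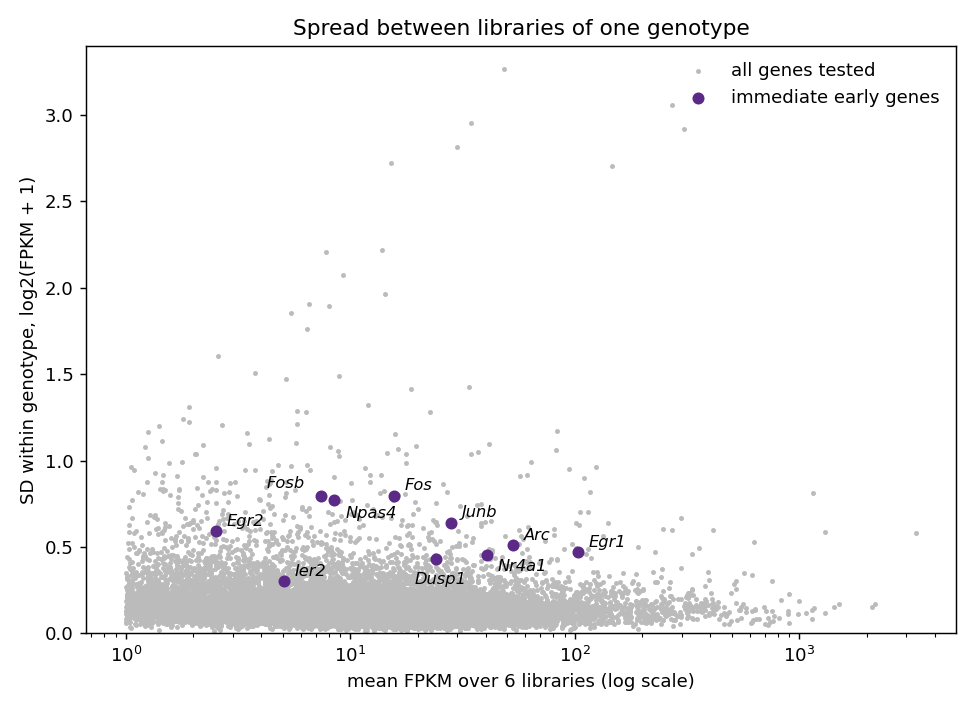
SD within genotype of log2(FPKM + 1) (vertical axis) against mean FPKM over 6 libraries (horizontal log axis) for all 12885 genes tested (grey) and the 10 immediate early genes (purple). The 10 lie between 0.30 (Ier2) and 0.80 (Fos and Fosb), above most genes of like level.

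The median of the 10 genes, as a deviation from each gene's mean over the 6 libraries, was 0.47, -0.64 and -0.013 in knockout libraries 1, 2 and 3, against medians of 0.56, -0.054 and -0.35 in wild-type libraries 1, 2 and 3. The 2 libraries numbered 1 were therefore both the highest, and the lowest were knockout library 2 and wild-type library 3. Nr4a1 followed this median profile most closely, with a root mean square difference of 0.085, followed by Egr1 (0.14) and Egr2 (0.15). Arc lay furthest from it of the 10 (0.51), and the median over all 12875 other genes was 0.44. This difference counts the size of a gene's swings as well as their direction, so a gene that hardly varies also lies away from the profile. The 2 values therefore do not show that Arc followed the pattern less than other genes did. Arc too was lowest in knockout library 2 (-1.21). The 10 genes themselves set this profile and the other genes did not, so nearness of the 10 to it is partly built in.

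Several other markers were uneven over the same libraries. Red blood cell markers summed to 7.9, 458 and 374 FPKM in knockout libraries 1, 2 and 3, against 39.9, 2283 and 515 FPKM in wild-type libraries 1, 2 and 3, so they were lowest in the 2 libraries in which the immediate early genes were highest. Striatal projection neuron markers summed to 173, 316 and 108 FPKM in knockout libraries 1, 2 and 3, against 134, 329 and 80.4 FPKM in wild-type libraries 1, 2 and 3. Glucocorticoid response genes summed to 1442, 2065 and 954 FPKM in knockout libraries 1, 2 and 3, against 1600, 1146 and 1003 FPKM in wild-type libraries 1, 2 and 3. They were highest in knockout library 2, in which the immediate early genes were lowest, and next highest in the libraries numbered 1, in which the immediate early genes were highest. The part of blood, region or stress hormone in the level of the 10 genes was not tested.

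**Figure D5:**
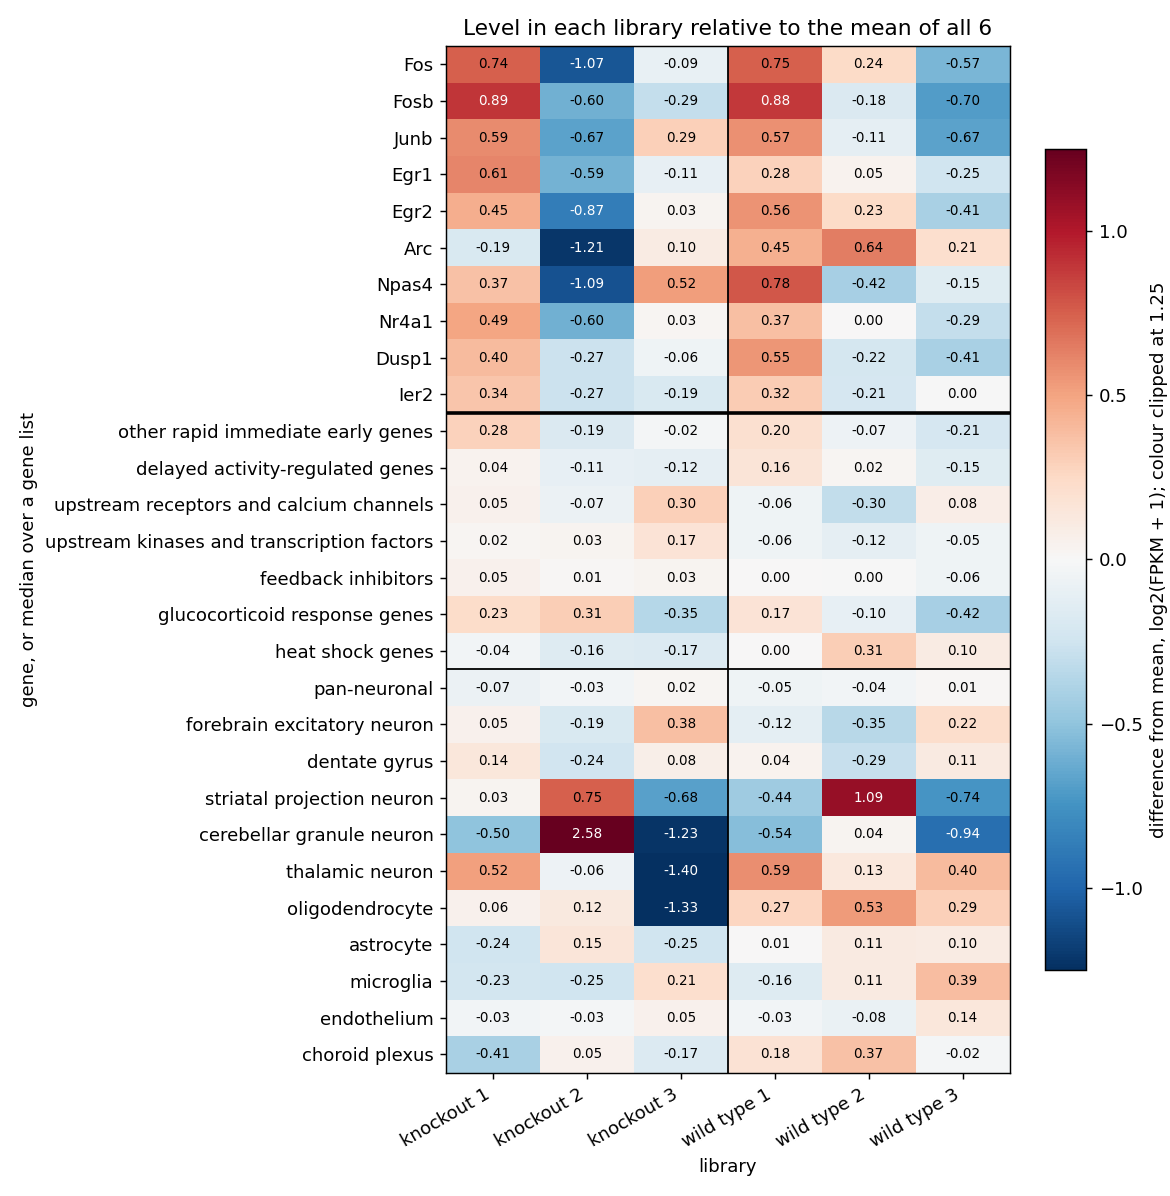
Level in each library (columns, knockout left and wild type right) relative to the mean of all 6, on log2(FPKM + 1), for each immediate early gene (top block), the median of each related gene list (middle block) and the median of cell type marker lists (bottom block). The red blood cell and neutrophil lists are not drawn. Red is above and blue below the mean. The top block is red in both libraries numbered 1 except for Arc in knockout library 1 (-0.19).

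By level per length, the mean over the 6 libraries ran from Egr1 (103 FPKM) through Arc (52.9), Nr4a1 (40.7), Junb (28.2), Dusp1 (24.2), Fos (15.7), Npas4 (8.48), Fosb (7.41) and Ier2 (5.05) to Egr2 (2.51). The neighbours that kept this order in all 6 libraries were Egr1 over Arc, Nr4a1 over Junb, Dusp1 over Fos, Fos over Npas4 and Ier2 over Egr2. Arc exceeded Nr4a1 in 4 of 6 libraries, Junb exceeded Dusp1 in 4, Npas4 exceeded Fosb in 3 and Fosb exceeded Ier2 in 5. The order of those neighbours thus changed between libraries, and no test compared levels between genes. The Arc and Nr4a1 order was turned in knockout libraries 1 and 2.

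The genes outside the 10 whose profile over the 6 libraries was nearest to their median were named by the root mean square difference of deviations, among 12875 genes. The 6 nearest were Fosl2 (0.16), Ptgs2 (0.17), Glipr1 (0.18), Slc5a5 (0.18), Egr4 (0.18) and Tac2 (0.19). Fosl2, another Fos family member, and Egr4, another Egr zinc-finger gene, are on the list of other rapid immediate early genes, and Ptgs2, the inducible cyclooxygenase of excitatory neurons, is on the list of delayed activity-regulated genes. Fosl2 had 11.4, 5.36 and 7.99 FPKM in knockout libraries 1, 2 and 3, against 9.88, 7.24 and 7.33 FPKM in wild-type libraries 1, 2 and 3. Egr4 had 28.2, 12.2 and 17.0 FPKM in knockout libraries 1, 2 and 3, against 23.2, 16.8 and 10.3 FPKM in wild-type libraries 1, 2 and 3. Both peaked in library 1 of each genotype. Ptgs2 had 5.99, 2.89 and 4.92 FPKM in knockout libraries 1, 2 and 3, against 6.88, 3.31 and 3.93 FPKM in wild-type libraries 1, 2 and 3, so its knockout and wild-type means, 4.6 and 4.71 FPKM, were nearly equal.

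The third comparison set the rest of the pathway beside the 10 genes. Of 30 other rapid immediate early genes, 29 were tested, 16 higher and 13 lower in the knockout, and their log2 fold changes had a median of 0.037. That median was -0.11 without knockout library 1, -0.06 without wild-type library 3 and 0.18 without wild-type library 1. In limma 0 passed after adjustment, and 0 had an unadjusted p under 0.05. With the replicate number as a block, 4 higher and 1 lower were under 0.05, against 6.08% of all genes higher and 8.22% lower in that fit, and again 0 passed after adjustment. Zfp36 and Cyr61 were among the 4. Zfp36, whose protein binds AU-rich elements and speeds messenger RNA decay, had 6.22 ± 1.5 and 4.29 ± 1.0 FPKM in knockout and wild type (SD, n = 3 each), and Ier5 had 11.6 ± 1.2 and 14.0 ± 1.6 FPKM. Trib1, a pseudokinase gene, had 5.37 ± 0.67 and 6.18 ± 0.20 FPKM, and Cyr61, a secreted matrix protein gene, had 6.23 ± 3.2 and 3.80 ± 1.6 FPKM. Of the 29, 21 peaked in library 1 of either genotype, against 27.2% of all genes, so this list showed the same high libraries. Its median SD within genotype was 0.31, between that of the 10 genes and that of all genes.

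Of 20 delayed activity-regulated genes, which follow the first wave and include growth factors and synaptic proteins, 19 were tested, 7 higher and 12 lower, and the median of their log2 fold changes was -0.052 (-0.11 without knockout library 3, and -0.086 and -0.12 without wild-type libraries 2 and 3). A single gene of the 19, on the lower side, had an unadjusted p under 0.05, against 3.69% of all genes on that side. With the replicate block there were 4, all lower, against 8.22% of all genes. It was Crem, a CREB family gene with an inducible repressor form, with 5.18, 4.69 and 4.75 FPKM in knockout libraries 1, 2 and 3, against 5.86, 5.76 and 5.79 FPKM in wild-type libraries 1, 2 and 3. Its values did not overlap, and its adjusted p in limma was 0.79. Rgs2, a regulator of G protein signalling, had 14.2 ± 1.8 and 17.7 ± 2.7 FPKM in knockout and wild type (SD, n = 3 each). Scg2, the secretogranin II gene, had 111 ± 25 and 142 ± 30 FPKM, and the receptor gene Gpr3 had 4.67 ± 0.96 and 5.78 ± 1.3 FPKM. Of the 19, 7 (36.8%) peaked in library 1 of either genotype, against 27.2% of all genes.

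Genes that carry the signal to the promoters were mostly above the wild type by small amounts, none past the adjusted threshold. Of 8 receptor and calcium channel genes, 7 were higher, with a median log2 fold change of 0.15. Leaving out wild-type library 2 gave 0.037, knockout library 3 gave 0.052, knockout library 2 gave 0.23 and wild-type library 3 gave 0.27. With the replicate block 3 of the 8, all higher, had an unadjusted limma p under 0.05, against 6.08% of all genes on that side. Without the block there was 1, also higher, against 2.37%. Cacna1d, an L-type calcium channel gene, had 8.29, 8.31 and 10 FPKM in knockout libraries 1, 2 and 3, against 7.26, 5.68 and 7.08 FPKM in wild-type libraries 1, 2 and 3, without overlap (limma adjusted p = 0.79). The AMPA receptor genes Gria1 and Gria2 had 104 ± 10 and 113 ± 19 FPKM in the knockout, against 88.0 ± 11 and 101 ± 17 FPKM in the wild type, and the NMDA receptor gene Grin1 had 164 ± 5.1 and 149 ± 24 FPKM in knockout and wild type. These 8 genes had their lowest list level in wild-type library 2 and their highest in knockout library 3, as did the forebrain excitatory neuron markers (-0.35 and 0.38 as median deviations), and the part of regional makeup was not tested.

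Of 32 kinases and transcription factors upstream, 27 were higher and 5 lower, and the median log2 fold change was 0.13 (0.061 without knockout library 3). An unadjusted p under 0.05 was found for 3, all higher, against 2.37% of all genes on that side, and for 7, all higher, with the replicate block, against 6.08%. Rps6ka5, the kinase MSK1 that phosphorylates CREB and histone H3, had 5.90, 6.05 and 5.67 FPKM in knockout libraries 1, 2 and 3, against 4.92, 4.57 and 4.25 FPKM in wild-type libraries 1, 2 and 3. Its spread within genotype was small and its values did not overlap (limma adjusted p = 0.79). Mef2d, a calcium-regulated transcription factor gene, had 65.2 ± 3.6 and 54.6 ± 4.2 FPKM, and the CREB coactivator gene Crtc1 had 43.8 ± 4.2 and 36.8 ± 1.5 FPKM in knockout and wild type (SD, n = 3 each). Camk4, a calcium-dependent kinase gene also abundant in cerebellar granule neurons, had 24.3, 48.9 and 34.2 FPKM in knockout libraries 1, 2 and 3, against 21.2, 21.8 and 27.7 FPKM in wild-type libraries 1, 2 and 3, highest in the knockout library with the most cerebellar marker RNA.

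Of 11 feedback inhibitors of the MAP kinase pathway or of Egr proteins, 6 were higher and 5 lower, and 0 had an unadjusted limma p under 0.05. With the replicate block there were 2, both higher, against 6.08% of all genes on that side. The median log2 fold change was 0.034, and it turned to -0.0085 when wild-type library 3 was left out to 0.16 when knockout library 2 was, to 0.014 when knockout library 1 was and to 0.071 when wild-type library 1 was. Nab2, a corepressor of Egr proteins that is itself induced by them, had 16.2 ± 1.5 and 13.2 ± 2.6 FPKM in knockout and wild type (SD, n = 3 each). Spry1, a Sprouty inhibitor gene, had 7.43 ± 0.87 and 6.22 ± 0.41 FPKM, and Spred3 had 19.4 ± 2.8 and 17.4 ± 0.90 FPKM. Dusp5, a nuclear ERK phosphatase gene, had 10.5, 20.3 and 8.16 FPKM in knockout libraries 1, 2 and 3, against 8.67, 7.57 and 6.65 FPKM in wild-type libraries 1, 2 and 3. Its highest value was in knockout library 2, in which 8 of the 10 immediate early genes were lowest.

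Stress-response genes were described over the same libraries. All 10 heat shock genes were lower in the knockout, the median log2 fold change being -0.27 (-0.16 without wild-type library 2), and 3 had an unadjusted p under 0.05, against 3.69% of all genes on that side, and 0 passed after adjustment. With the replicate block there were 5, all lower, against 8.22% of all genes. None of these 10 peaked in library 1 of either genotype. Hspb1, for a small heat shock protein, had 7.09 ± 0.68 and 10.6 ± 1.0 FPKM, Hspa8 1006 ± 64 and 1266 ± 143 FPKM, Hsp90aa1 372 ± 17 and 444 ± 47 FPKM and Hspd1 53.8 ± 4.5 and 62.5 ± 5.2 FPKM in knockout and wild type (SD, n = 3 each). Of 13 glucocorticoid response genes, 10 were higher, and 0 had an unadjusted limma p under 0.05. With the replicate block there was 1, higher, against 6.08% of all genes on that side. The median log2 fold change of the 13 was 0.23. That median was 0.013 without knockout library 2, 0.078 without knockout library 1 and 0.08 without wild-type library 3. Klf9 had 71.8 ± 8.3 and 60.6 ± 4.4 FPKM, Fkbp5, a chaperone gene of the receptor, 26.8 ± 4.0 and 20.8 ± 9.6 FPKM, Sult1a1 26.9 ± 11 and 18.7 ± 9.5 FPKM, and the clock gene Per1 39.0 ± 7.8 and 33.0 ± 5.8 FPKM.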

How the data were processed

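Messenger RNA of 6 brain libraries, 3 per genotype, was analysed. Trizol-extracted RNA was, per the labels' protocols, selected on oligo(dT) beads, fragmented and reverse transcribed from random hexamers. The deposited values are FPKM per gene, per the file headers, with 2 decimals. Bowtie2, RSEM and the build mm10 stand in the submitters' processing notes, and the sources used here give no versions or settings. FPKM hold no read totals, so no counting interval is given and no count model was run. Members, gene lists and tests were chosen with earlier results of these data known.

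All 18491 genes were read, and the 12885 with a mean of at least 1 FPKM, the 10 members among them, were tested together on log2(FPKM + 1) with limma 3.58.1 in R 4.3.3 (eBayes with trend and robust options; 2-sided; Benjamini-Hochberg adjustment; threshold 0.05). The steps were tested on simulated data. Fold changes are on that scale and understate those of low genes. From each related list, up to 4 tested genes of lowest unadjusted p were named, and the 6 genes of nearest profile. Sequences are from RefSeq (GRCm38.p6) and GENCODE M21 (GRCm38, which mm10 also names). GENCODE transcripts were matched for 99.6% of tested genes.

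The labels do not say what the replicate numbers in the titles mark. Deviations from the group means correlated across genes at 0.485, 0.413 and 0.539 for pairs 1, 2 and 3. Between libraries of unlike number the correlations lay between -0.326 and -0.103. Because deviations within a genotype cancel out, the latter are partly negative by construction. The numbers may therefore pair the genotypes, on evidence from the data alone. The fit without the block was kept as the one reported. Alternatives were another pseudocount, no filter, 2 rescalings, the replicate block, array weights, a plain variance prior and leaving out each library.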

Additional observations from a re-analysis of the deposited data

How the results depend on the processing

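In 13 alternative settings 0 of the 10 immediate early genes passed limma's adjusted threshold. The median log2 fold change of the 10, -0.066 in the reported fit, changed sign between settings. It ranged from -0.37 without knockout library 1 to 0.21 without knockout library 2. The SD of the library medians within genotype was 0.51. Leaving out 1 library could hardly move the median by more than that, so the SD is no measure of its stability. The count of genes called over the whole table was 1 without a filter on low values (Hist2h2aa2), and 0 to 1 when single libraries were left out (Rps27rt, without wild-type library 3). Both genes were named after their values were seen. Arc was lower in the knockout in all 13 alternatives, with log2 fold changes from -1.13 to -0.47 and adjusted p from 0.382 to 1.0. Its unadjusted p stayed under 0.05 in 9 and was 0.0742 with the replicate block, and 0.0912, 0.091 and 0.0505 without wild-type libraries 1, 2 and 3. With the replicate block the log2 fold changes are the same by construction, 0 genes were called, and 1842 genes had an unadjusted p under 0.05, against 780 without it. The block changed no adjusted call, and its effect on unadjusted counts of the related lists stands beside them.

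Of 130 values for single members under the alternatives, 29 changed sign, none of them called. Fosb (-0.0015) turned to 0.000196 with a pseudocount of 0.1, 0.024 after rescaling to equal sums and 0.011 after quantile normalization. With array weights Fos was 0.12, Fosb 0.44, Egr1 0.25, Npas4 0.093, Nr4a1 0.19 and Ier2 0.14. When each library was left out in turn, the log2 fold changes ranged as follows, lowest to highest: Fos -0.72 to 0.19, Fosb -0.45 to 0.44, Junb -0.16 to 0.51, Egr1 -0.38 to 0.23, Egr2 -0.55 to 0.11, Npas4 -0.43 to 0.38, Nr4a1 -0.31 to 0.23, Dusp1 -0.14 to 0.34 and Ier2 -0.27 to 0.068. Knockout library 2 and wild-type library 1 were those whose absence turned most signs (7 and 6). The cause was not tested beyond the libraries left out. Depth is unknown, and 3 libraries per genotype limit what could be detected.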
